A study of Mus musculus with 8 samples.

Results

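A set of 32 genes of the nerves that supply fat was followed in thoracic perivascular adipose tissue, the fat around the thoracic aorta, of mice whose Rictor gene was targeted. The set was given by name and holds 19 genes of sympathetic neurons and 13 of Schwann cells and myelin. A gene was taken as measured where the platform annotation gave a probe set to it alone, and of several such probe sets the one with the highest mean over the 8 arrays was used. This held for 28 of the 32 genes, 17 of neurons and 11 of Schwann cells, among 18782 genes in all. Phox2a, Tubb3 and Mbp share their probe sets with another gene in that annotation, and Prx was not matched, so these 4 were not analysed here. The groups were 4 arrays labelled RictoraP2KO and 4 labelled control, the genotype Rictorfl/fl, whose floxed alleles carry the sites that Cre recombinase cuts. The aP2 (Fabp4) promoter named in RictoraP2KO is that of a fatty acid binding protein of fat cells, and the series title names the brain beside fat as a place of the deletion. All mice were male, aged 17 to 22 weeks, untreated, fasted overnight and killed at 9 am. The labels do not say that each sample is a separate animal, and the p-values then speak of the spread among these arrays alone.

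Sympathetic nerves release noradrenaline onto the fat cells and vessels of perivascular fat, where it drives lipolysis, heat production and vessel tone. The cell bodies of these neurons lie in ganglia beside the spine, which hold most of the neurons' messenger RNA, and their axons run into the tissue inside nerves. Schwann cells wrap axons along the nerve, and their RNA is made locally, so a piece of tissue can hold Schwann cell RNA without a ganglion. Arrays of whole tissue do not show whether the Schwann cell and myelin genes belong to sympathetic or to other axons. In such bulk samples fewer cells of a type and less RNA per cell cannot be told apart.

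RefSeq promoters, 250 bases before to 50 bases after the start of a gene in build GRCm38.p6, were at hand for 23 of the 32 genes, as 35 windows. The windows of Th (chr7:142899946-142900245, minus strand), Slc18a2 (chr19:59260628-59260927, plus strand) and Chgb (chr2:132781392-132781691, plus strand) are shown because all hold the cAMP response element TGACGTCA, which CREB binds in cells stimulated through cAMP. The window of Dbh (chr2:27165257-27165556, plus strand) is shown because that gene, like Th and Slc18a2 but not Chgb, stood out in 1 array, described below. That of Gldn (chr9:54286236-54286535, plus strand) is shown because it alone holds the AP-1 element TGACTCA. Each is written 5′ to 3′ on the strand of the gene, with those elements in capitals.
Th: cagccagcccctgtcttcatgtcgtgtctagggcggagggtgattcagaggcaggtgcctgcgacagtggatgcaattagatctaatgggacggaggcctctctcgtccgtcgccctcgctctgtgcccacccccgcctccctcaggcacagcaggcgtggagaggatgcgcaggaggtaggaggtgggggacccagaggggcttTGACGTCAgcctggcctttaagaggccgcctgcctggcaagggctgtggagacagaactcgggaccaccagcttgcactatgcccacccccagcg
Slc18a2: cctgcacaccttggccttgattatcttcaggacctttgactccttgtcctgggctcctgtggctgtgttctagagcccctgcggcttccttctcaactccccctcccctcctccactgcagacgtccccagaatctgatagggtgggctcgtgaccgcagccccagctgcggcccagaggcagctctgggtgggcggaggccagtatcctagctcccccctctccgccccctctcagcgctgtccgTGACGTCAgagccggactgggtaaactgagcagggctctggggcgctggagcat
Chgb: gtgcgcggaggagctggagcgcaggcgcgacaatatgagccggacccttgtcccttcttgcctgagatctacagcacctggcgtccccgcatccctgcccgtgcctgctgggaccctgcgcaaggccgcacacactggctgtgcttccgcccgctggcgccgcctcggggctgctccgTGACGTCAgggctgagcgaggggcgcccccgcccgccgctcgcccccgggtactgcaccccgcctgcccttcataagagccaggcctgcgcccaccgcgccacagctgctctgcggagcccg
Dbh: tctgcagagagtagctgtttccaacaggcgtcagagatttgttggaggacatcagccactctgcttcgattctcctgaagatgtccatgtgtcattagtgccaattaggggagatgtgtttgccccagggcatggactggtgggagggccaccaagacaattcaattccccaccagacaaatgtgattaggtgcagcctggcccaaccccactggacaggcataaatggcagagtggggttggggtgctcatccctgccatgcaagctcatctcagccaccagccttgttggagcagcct
Gldn: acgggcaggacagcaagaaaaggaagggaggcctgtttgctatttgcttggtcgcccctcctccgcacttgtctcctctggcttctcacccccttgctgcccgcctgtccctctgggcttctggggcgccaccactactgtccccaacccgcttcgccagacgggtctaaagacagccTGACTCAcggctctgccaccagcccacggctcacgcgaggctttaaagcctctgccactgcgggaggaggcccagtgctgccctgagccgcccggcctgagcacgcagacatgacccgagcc

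The element TGACGTCA had its first base 45 bases before the start in Th, 4 bases before it in Slc18a2 and 72 bases before it in Chgb. In Slc18a2 the element thus runs across the start. It was in 1.79% of all 32851 windows of this length and in 3 of the 35 windows of these genes. The AP-1 element lay 72 bases before the start of Gldn, against 5.20% of all windows. Other letters searched on both strands were TAATTA, a core that homeodomain factors bind, found in 2 overlapping windows of Elavl4 (5.29% of all windows), and ACAAAG, a core of SOX factors, found in windows of Cnp, Ddc, Mag and Syt1 (18.7%). The letters TATAAA of the TATA box were found in Chga, Ddc and Prph (13.6%) and the E-box CACGTG in 0 of the 35 windows (7.15%). TATAAA lay 31 bases before the start in Prph, 68 bases before it on the other strand in Ddc, and past the start in Chga. No matches overlapped in a window of these genes. The window of Dbh held none of these letters. A match of this kind is a description of the window and not a bound site.

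The tissue was checked first. The adipocyte hormone gene Adipoq lay between 10.85 and 11.08 and the brown fat gene Ucp1 between 11.32 and 12.01 as log2 RMA signals in all 8 arrays, on a scale whose median over all probe sets is 3.76. The Rictor signal was 6.68 ± 0.08 (SD, n = 4) in the arrays labelled RictoraP2KO and 6.54 ± 0.06 (SD, n = 4) in the controls. The difference of 0.145 (SE 0.063, limma adjusted p = 0.68) was not called. It ran against the direction of the label, so every direction below rests on the labels. A total of 1 probe set of 28371, or 0.00352%, differed between the groups at a limma adjusted p under 0.05. Lists of genes of other tissues were high in single arrays. The mean of 10 lung epithelial genes, each centred on its mean over the arrays, was 2.64 in control replicate 2. RictoraP2KO replicate 2 was highest for 10 skeletal muscle genes (1.14), 7 cardiac muscle genes (1.90, next 0.82 in control replicate 2) and 8 lymph node genes (0.70). In control replicate 3, on which the neuron genes turn, these 4 means were -0.44, -0.15, -1.01 and -0.11 in that order.

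Of the 28 genes, 0 passed the adjusted threshold. An unadjusted limma p under 0.05 was found for 3, the Schwann cell list members S100b, Cldn19 and Gldn, all lower in the arrays labelled RictoraP2KO, where 6.48% of all genes had such a p. Adjusted p-values of the 28 ran from 0.649 to 0.99. The neuron genes were lower in the mean of the arrays labelled RictoraP2KO in 17 of 17 cases, with a median difference of -0.32 against -0.0080 over all genes, and 1 array decided this: without control replicate 3, 9 were above and 8 below 0 and the median difference was 0.004. Of the Schwann cell genes, 4 were above and 7 below 0, with a median of -0.057.

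Genes for making, storing and taking up noradrenaline stood out in 1 array. Th encodes tyrosine hydroxylase, the rate-limiting enzyme of catecholamine synthesis. Its log2 signal was 2.58, 2.57, 3.16 and 2.50 in RictoraP2KO replicates 1 to 4 and 2.60, 2.79, 5.71 and 2.96 in control replicates 1 to 4. Control replicate 3 was thus 2.54 above the next highest array, RictoraP2KO replicate 3, and the other 7 arrays of both groups overlapped. Between the groups Th differed by -0.81 (SE 0.62; limma adjusted p = 0.808), and it shrank to -0.081 (SE 0.17) without control replicate 3. Dbh encodes dopamine beta-hydroxylase, which turns dopamine into noradrenaline inside vesicles. Its signal was 2.27, 2.91, 2.76 and 2.46 in RictoraP2KO replicates 1 to 4 and 2.48, 2.35, 5.86 and 2.77 in control replicates 1 to 4. Control replicate 3 again stood alone, 2.95 above the next array, and the other 7 arrays all lay below the median of all probe sets. Dbh differed between the groups by -0.76 (SE 0.70; limma adjusted p = 0.838), a value that became 0.069 (SE 0.17) without that array.

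Slc6a2, the noradrenaline transporter that returns the transmitter to the nerve ending, gave the same picture. Its signal was 3.93, 3.73, 3.67 and 3.59 in the arrays labelled RictoraP2KO and 3.74, 3.84, 5.29 and 3.81 in the controls, replicates 1 to 4 each. Npy encodes neuropeptide Y, a co-transmitter that constricts vessels, and read 3.22, 3.51, 3.70 and 3.52 against 3.54, 3.20, 5.25 and 3.54 in the same order. In both genes control replicate 3 was the highest of all 8 arrays, by 1.36 and 1.56, and the remaining arrays of the groups overlapped. Slc18a2, the transporter VMAT2 that loads amines into vesicles, was 4.70 in control replicate 3, whereas the other arrays lay from 3.18 to 3.55. Ddc, the decarboxylase that makes dopamine, was 3.15 there and between 2.12 and 2.49 elsewhere. All 6 noradrenergic genes were thus highest in control replicate 3, 5 of them by at least 1. Differences between the groups ran from -0.81 to -0.14, and from -0.081 to 0.092 without that array, where 4 of the 6 were above 0.

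Genes of vesicle release and of secretory granules did not behave alike. Snap25 encodes a part of the SNARE complex that fuses vesicles with the membrane. Its signal was 2.73, 3.21, 2.99 and 3.42 in RictoraP2KO replicates 1 to 4 and 3.07, 2.82, 5.79 and 3.33 in control replicates 1 to 4. Syt1, the calcium sensor of that fusion, read 2.94, 3.18, 3.22 and 2.91 against 3.09, 2.97, 5.64 and 3.51 in the same order. Control replicate 3 stood 2.37 above the next array for Snap25 and 2.13 for Syt1, and the other arrays overlapped. Group differences were -0.66 (SE 0.58) and -0.74 (SE 0.52), and without that array 0.015 (SE 0.18) and -0.13 (SE 0.14). Chga and Chgb encode the granins, which pack amines into granules. Chga was 3.48, 3.38, 3.58 and 3.56 in RictoraP2KO replicates 1 to 4 and 4.16, 3.47, 3.86 and 3.54 in control replicates 1 to 4, so its highest array was control replicate 1 and control replicate 3 came next. Chgb stayed between 2.48 and 2.71 in all 8 arrays, with 2.62 in control replicate 3. Its difference was -0.0040 (SE 0.066).

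Axon and growth genes followed control replicate 3 to different degrees. Stmn2, a tubulin-binding protein of growing axons, read 4.52, 5.57, 4.99 and 4.96 in RictoraP2KO replicates 1 to 4 and 5.30, 5.39, 6.84 and 4.87 in control replicates 1 to 4. It was 1.27 above the next array in control replicate 3, and unlike most of the set its mean lay above the median of all probe sets. Uchl1, a deubiquitinating enzyme abundant in neurons, was 4.36 in control replicate 3 against a range of 3.04 to 3.43 elsewhere. Prph, the intermediate filament peripherin of peripheral neurons, was 3.67 there and between 2.44 and 2.83 elsewhere. The neurofilament subunits were less far apart. Nefl was 3.23 there against at most 2.42, and Nefm 2.14 against at most 1.98. Gap43, a protein of growth cones, was 3.18 there against at most 2.66. Of the neuronal RNA-binding protein Elavl4, the signal was 1.95, 1.98, 2.08 and 1.96 in the arrays labelled RictoraP2KO and 2.01, 2.07, 2.30 and 2.05 in the controls, all close to the floor of the scale. Control replicate 3 was the highest array for 6 of the 6 measured axon genes and for Elavl4, and only Stmn2 exceeded the next by 1. Group differences of the 6 ran from -0.59 to -0.037, and from -0.18 to 0.14 without that array.

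**Figure D1:**
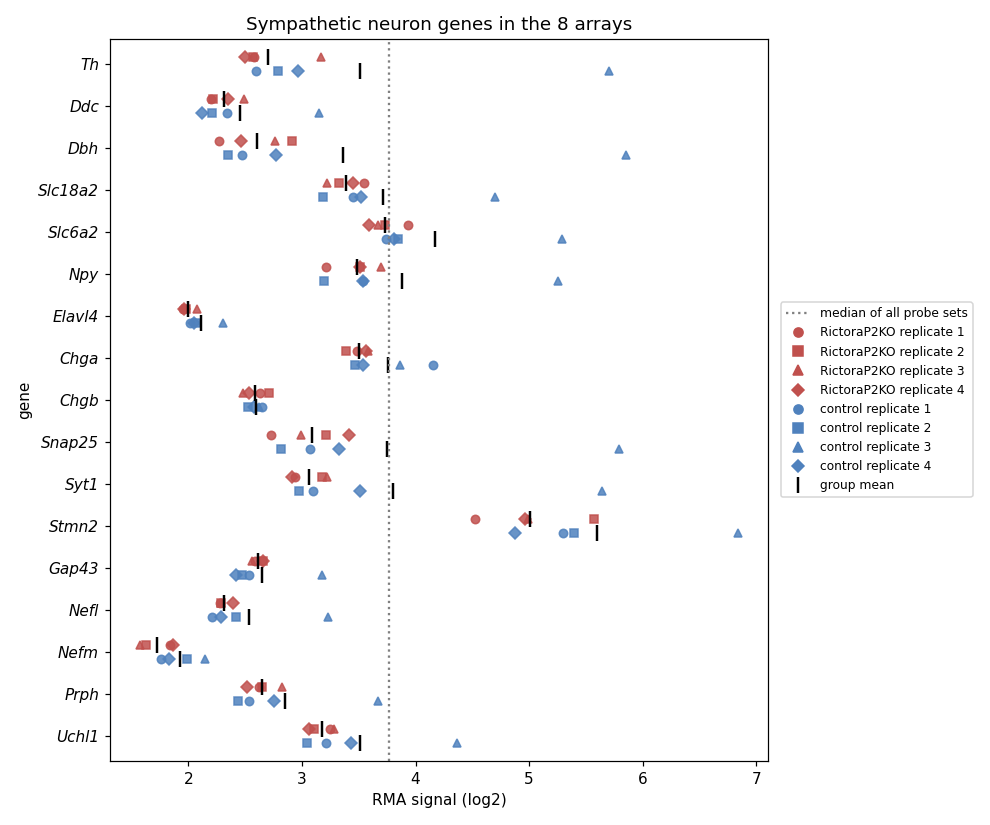
Log2 RMA signal (horizontal axis) of the 17 measured neuron genes, with 1 point per array coloured by group and shaped by replicate number; black bars are group means and the dotted line is the median of all probe sets, 3.76. The blue triangle, control replicate 3, is the highest point for 15 of the 17 genes, Chga and Chgb being the others.

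Control replicate 3 was the highest of the 8 arrays for 15 of the 17 neuron genes, for 0 of the 11 Schwann cell genes and for 12.1% of all genes. Among 28 further Schwann cell genes, described below, it was the highest for 6. It stood at least 1 above every other array for 14 of the 18782 genes, or 0.0745%, and 8 of these 14 were members: Dbh, Th, Snap25, Syt1, Npy, Slc6a2, Stmn2 and Slc18a2. Among the other 6 were Chrna3, a subunit of the nicotinic receptor through which ganglion neurons are driven, at 5.31 against at most 2.74, and Gfra1, a co-receptor for GDNF, at 7.34 against at most 5.33. Rab3b, a small GTPase of secretory vesicles, stood at 4.48 against at most 3.21. Rit2, a neuronal GTPase, stood at 3.98 against at most 2.85, and the potassium channel gene Kcnj15 at 5.68 against at most 4.58. The small nucleolar RNA Snord14e, which the naming rule leaves out, was the other one. Close below that limit, in order of the gap, came Kif1a, the motor that carries synaptic vesicle precursors along axons, at 4.32 against at most 3.32, and Acot12, an acyl-CoA thioesterase, at 6.51 against at most 5.52. Chrnb4, the partner of Chrna3, was at 4.59 against at most 3.62, and the claudin gene Cldn10 at 4.86 against at most 3.91. Further genes of this kind were Kcnip4, Slc7a14, Stmn3, Htr3a, Rdh16 and Rtn1. Htr3a, a serotonin-gated channel, was at 3.11 against at most 2.22. The genes high in this array were not of neurons alone: Rdh16, a retinol dehydrogenase, was at 7.39 against at most 6.52. Fewer genes stood alone in this array than in control replicate 2, with 25, or in RictoraP2KO replicate 2, with 43, and those arrays held 0 members among them.

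Of 36 further sympathetic neuron genes, 32 were measured, and 21 of them were highest in control replicate 3. Of these 32, 0 passed the adjusted test, 5 were above and 27 below 0, and the median difference was -0.13. Without control replicate 3 the counts were 12 and 20 and the median was -0.061. An unadjusted p under 0.05 was found for 3 of the 32, where 6.48% of all genes had one, and all 3 were lower in the arrays labelled RictoraP2KO. Pcsk1n, an inhibitor of prohormone cleavage, differed by -0.24 (SE 0.071; limma adjusted p = 0.649). Vsnl1, a neuronal calcium sensor, differed by -0.43 (SE 0.137; limma adjusted p = 0.651) and the granin Scg2 by -0.35 (SE 0.136; limma adjusted p = 0.668). Control replicate 3 was not alone in these: Vsnl1 was 3.10 there and 3.21 in control replicate 2, and Scg2 was 2.93 there and 2.87 in control replicate 4. In the fit without control replicate 3, 3 of the 32 had such a p, as had 1159 of all 18782 genes. They were Mapt (-0.61, SE 0.19), Pcsk1n (-0.20, SE 0.074) and Vsnl1 (-0.38, SE 0.15), each with a limma adjusted p of 0.712. Of the genes of other neuron types, 0 of 12 sensory, 1 of 5 cholinergic, 1 of 3 chromaffin and 1 of 13 brain neuron and oligodendrocyte genes were highest in control replicate 3. Pnmt, which makes adrenaline in chromaffin cells, was 2.08 there, and between 1.99 and 2.20 over all arrays.

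**Figure D2:**
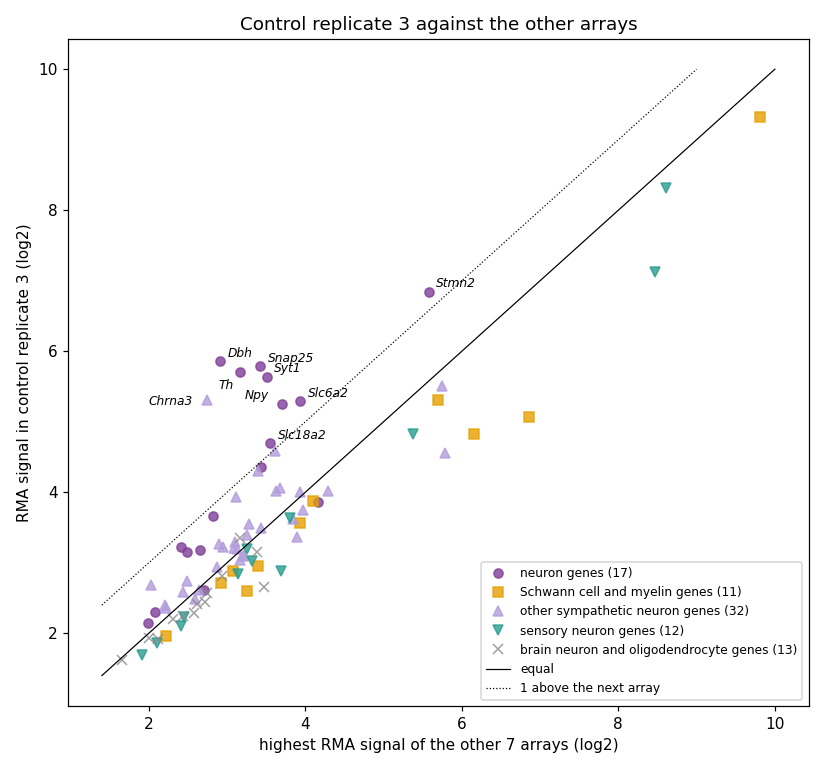
Log2 RMA signal in control replicate 3 (vertical axis) against the highest signal of the other 7 arrays (horizontal axis), 1 point per gene for 5 gene lists. Points above the dotted line stand at least 1 above every other array. There lie 8 neuron members and Chrna3, while Schwann cell members, sensory and brain genes lie near or under the line of equal values. The further Schwann cell genes are not drawn.

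Within the Schwann cell list the largest difference was that of S100b, a calcium-binding protein used as a Schwann cell marker, which brown fat cells also make. Its signal was 5.46, 4.96, 5.15 and 4.65 in RictoraP2KO replicates 1 to 4 and 6.86, 6.26, 5.07 and 6.03 in control replicates 1 to 4. Control replicates 1, 2 and 4 lay above all arrays labelled RictoraP2KO, while control replicate 3 lay within their range, so the groups overlapped. It differed by -1.0 (SE 0.34; limma adjusted p = 0.651). Without control replicate 3 it was -1.33 (SE 0.24; limma adjusted p = 0.702), and it stayed between -1.36 and -0.73 over 18 alternatives, with adjusted p-values from 0.550 to 0.969. The array that was high for the neuron genes was therefore the lowest control array for S100b.

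Gldn encodes gliomedin, which Schwann cell processes present at nodes to gather sodium channels in the axon. Its signal was 4.63, 4.39, 4.76 and 3.77 in RictoraP2KO replicates 1 to 4 and 6.16, 4.82, 4.83 and 4.87 in control replicates 1 to 4. The groups did not overlap, but by a margin of only 4.76 against 4.82, and control replicate 1 stood far above the rest. Gldn differed by -0.78 (SE 0.33; limma adjusted p = 0.673) and -0.45 without control replicate 1. Cldn19, a tight junction protein of the uncompacted myelin folds, read 2.82, 2.78, 2.69 and 2.82 against 3.07, 3.04, 2.88 and 3.01 in the same order. It also did not overlap, with a difference of -0.22 (SE 0.064; limma adjusted p = 0.649), and all of its values lay below the median of all probe sets. These 2 of the 28 genes did not overlap between the groups, as did 3.57% of all genes.

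Sox10, the transcription factor that defines Schwann cells, had the opposite sign. It read 4.08, 4.10, 4.08 and 3.80 in RictoraP2KO replicates 1 to 4 and 3.77, 3.57, 3.88 and 4.03 in control replicates 1 to 4, a difference of 0.20 (SE 0.11; limma adjusted p = 0.749). The groups overlapped only through RictoraP2KO replicate 4, which lay below control replicates 3 and 4. Pmp22, a membrane protein of compact myelin that many other cells also make, was 9.75, 9.45, 9.46 and 9.37 against 9.75, 9.81, 9.32 and 9.51 in the same order, with full overlap and a difference of -0.090 (SE 0.13). Cnp, an enzyme of the uncompacted myelin cytoplasm, was 5.69, 5.27, 5.34 and 5.34 against 5.18, 5.21, 5.31 and 5.56, a difference of 0.097 (SE 0.12).

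Pllp, plasmolipin of the myelin membrane, was 2.68, 2.81, 2.88 and 2.67 in RictoraP2KO replicates 1 to 4 and 3.09, 3.26, 2.60 and 2.48 in control replicates 1 to 4, so the control arrays lay on either side of the others. Drp2, which links periaxin to dystroglycan at the outer surface of the Schwann cell, was 3.15, 2.96, 2.65 and 2.91 against 2.92, 2.65, 2.95 and 3.39. Both sets overlapped, with differences of -0.098 (SE 0.17) and -0.057 (SE 0.16). The myelin proteins Mal (0.074, SE 0.12) and Ncmap (-0.052, SE 0.070) and the adhesion protein Mag (0.12, SE 0.061) overlapped between the groups as well, and Mag lay between 1.96 and 2.22. Of the 11 Schwann cell genes, 6 had a mean signal below the median of all probe sets.

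**Figure D3:**
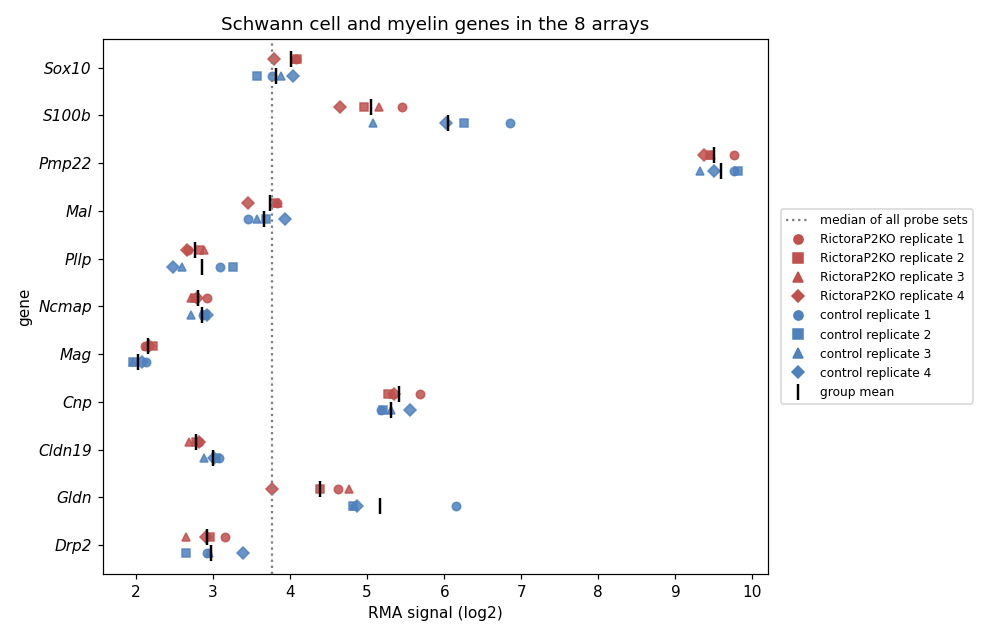
Log2 RMA signal (horizontal axis) of the 11 measured Schwann cell and myelin genes, drawn as for the neuron genes with 1 point per array, black bars for group means and the dotted line at 3.76. S100b shows control replicates 1, 2 and 4 above all arrays labelled RictoraP2KO, Gldn shows control replicate 1 alone at 6.16, and control replicate 3 is the highest point of no gene.

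A total of 28 of 30 further Schwann cell genes were measured, and 0 passed the adjusted test, with 13 above and 15 below 0 and a median difference of -0.011. An unadjusted p under 0.05 was found for 3 of the 28, where 6.48% of all genes had one. Kcna1, an axonal potassium channel gene in the list (0.30, SE 0.11), and Foxd3, a factor of the neural crest and of glia (0.21, SE 0.078), were higher in the arrays labelled RictoraP2KO, and Tenm2, an adhesion protein, was lower (-0.26, SE 0.10). Their limma adjusted p-values were all 0.668. Cdh19, a cadherin of Schwann cells, differed by 0.32 (SE 0.18), and Egr2, the factor that turns on myelin genes, by -0.46 (SE 0.29). Fabp7, a fatty acid binding protein of glia that surround ganglion neurons, was 5.84 in control replicate 3, but 5.86 in RictoraP2KO replicate 1 and 5.82 in control replicate 4. Ngfr, the low-affinity neurotrophin receptor of sympathetic neurons and glia, was 5.09 in control replicate 3 against at most 4.32 in the other arrays.

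The neuron and Schwann cell lists were set against each other in each array. The mean of the 17 neuron genes, each centred on its own mean over the 8 arrays, reached 1.21 in control replicate 3, and the other 7 arrays lay from -0.26 to -0.10. The mean of the 11 Schwann cell genes ran from -0.24 in RictoraP2KO replicate 4 to 0.26 in control replicate 1, and was -0.12 in control replicate 3. The neuron mean minus the Schwann cell mean was therefore 1.33 in control replicate 3, with the others from -0.40 to 0.046. Between the groups this value was -0.10 ± 0.16 (SD, n = 4) in the arrays labelled RictoraP2KO and 0.10 ± 0.82 (SD, n = 4) in the controls. The difference of -0.20 was smaller than the spread of the controls and became 0.21 without control replicate 3. That 0.21 was not a rise of the neuron genes, whose median difference without that array was 0.004. Of the Schwann cell genes, 7 were then below 0 and 4 above, with S100b at -1.33 and Gldn at -0.90. No test was run on the list means, because the genes had been chosen with earlier results known. The Schwann cell mean differed by -0.16 between the groups. It differed by -0.32 without dim probe sets, and by -0.0030 without S100b and Gldn, a pair chosen after their values were seen.

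**Figure D4:**
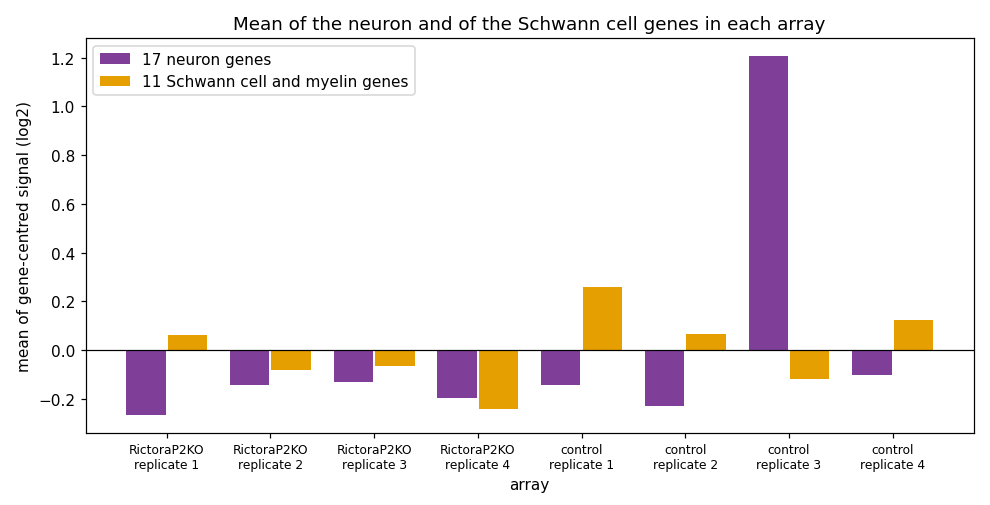
Mean of the gene-centred log2 signal (vertical axis, 0 being the mean of the 8 arrays) for the 17 neuron genes and the 11 Schwann cell genes in each array. Control replicate 3 has a neuron mean of 1.21 and a Schwann cell mean of -0.12, and the other 7 neuron means lie between -0.26 and -0.10. Because each gene is centred over all 8 arrays, a high value in 1 array places the others below 0.

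By role, the centred mean in control replicate 3 was 1.72 for the noradrenergic genes, 1.21 for the granule and synapse genes and 0.86 for the axon genes. Most of these genes had a mean signal below the median of all probe sets, so these values set no order among the roles. Fat cell genes differed little in that array, with a centred mean of -0.0041 where the 8 arrays ran from -0.065 to 0.20. Cardiac muscle genes were at -1.01 in control replicate 3, with -1.49 in RictoraP2KO replicate 1 and 1.90 in RictoraP2KO replicate 2 at the ends. Vascular smooth muscle genes were at 0.31 there, close to RictoraP2KO replicate 2 at 0.28 and control replicate 4 at 0.27. The part that tissue content has in the neuron values was not tested.

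**Figure D5:**
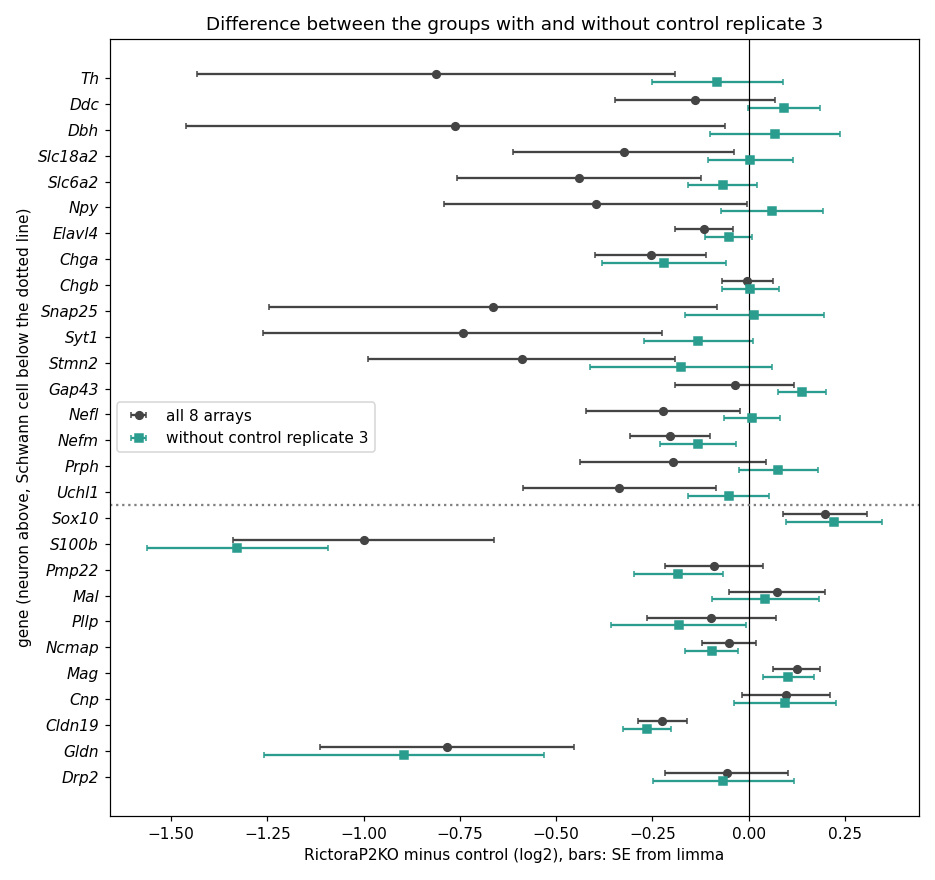
Difference of RictoraP2KO minus control in log2 signal (horizontal axis) with its SE from limma for the 28 measured genes, from all 8 arrays and without control replicate 3. The 17 neuron genes are all below 0 in the first and 9 of them above 0 in the second, with Th going from -0.81 to -0.081, while S100b moves from -1.0 to -1.33.

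Signals that tissues send to nerves were listed too. Of 14 nerve growth and guidance ligands, 12 were measured, with 6 above and 6 below 0, and 0 passed. The neuregulin gene Nrg4, secreted by brown fat, differed by 0.058 (SE 0.14), the GDNF family ligand Nrtn by -0.26 (SE 0.13) and Bdnf, a neurotrophin, by -0.041 (SE 0.067). Their ranges overlapped between the groups, and the median difference of the list was -0.0069, against -0.0080 over all genes.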

How the data were processed

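Total RNA (5 µg) of 8 samples of thoracic perivascular fat was hybridised to 1 Affymetrix array each. Per the submitters' processing notes, the authors made the deposited log2 values with RMA in Affymetrix Power Tools 1.10.2 (background correction, quantile normalisation and summarisation of probes), which gives every array the same median, so a difference in total RNA would not be seen. The table has 28371 probe sets, and 21158 had 1 gene symbol. RictoraP2KO was compared with control by limma 3.58.1 in R 4.3.3 (lmFit, eBayes, two-sided, no filter, no covariate), with p-values adjusted by Benjamini-Hochberg across the whole table and called at 0.05; the code was checked on simulated data. No detection calls were used, so signals under the median of 3.76 carry no fold. The members and lists were chosen with earlier results of these data known. The genes named are all members, with every array given for those that vary most, lead their role or have an unadjusted p under 0.05; up to 4 genes of each other list by p; up to 6 more of the sympathetic and Schwann lists by spread; and up to 15 genes highest in control replicate 3. Only those that bear on a result are printed. Adipoq, Nrg4, Bdnf and Snord14e lie outside that rule and were chosen after their values were seen. List means per array are means of gene-centred log2 values. Alternatives were a filter on dim probe sets, further normalisation, other moderation and weights, the replicate number as a block, gene means and omitted arrays. The number of arrays limits the precision.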

Additional observations from a re-analysis of the deposited data

Results flagged for a closer look

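In each group of 4 arrays, a value was marked where its gap to the nearest other exceeded Dixon's critical share of the range, which chance alone does in about 1 of 20 groups. Among the 28 members, 10 of 56 groups were marked, 5 of them by control replicate 3 as the highest control array: Th at 5.71, Dbh at 5.86 (5.855), Slc6a2 at 5.29, Npy at 5.25 and Gap43 at 3.18. The neuron list mean (1.21) and the neuron minus Schwann cell mean (1.33) were marked in the same array, as was Ngfr at 5.09 (5.085). Marks there were also given to Chrna3 at 5.31, Kif1a at 4.32 (4.315), Slc7a14 at 3.77, an amino acid transporter gene of neurons, and Htr3a at 3.11. Chrna3, Kif1a, Slc7a14 and Htr3a were among the genes named for their gap in control replicate 3. The rate of about 1 in 20 therefore does not apply to their marks in that array. It gives no chance count for the 10 of 56 groups or the list means either. The members and lists were chosen with earlier results known, and many neuron genes vary together in control replicate 3. Ngfr, and Ret below, were named for their spread over the arrays, so the rate does not apply to them.

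The other marks lay among the arrays labelled RictoraP2KO or in another control array. Gldn was 6.16 in control replicate 1, where the nearest control array was at 4.87. RictoraP2KO replicate 4 was the lowest of its group for Sox10 (3.80, 3.795 unrounded, nearest 4.08), Mal (3.46, 3.455 unrounded, nearest 3.80), Ngfr (3.69, nearest 4.22) and the sympathetic lineage factor Gata3 (2.65, nearest 2.96), and the highest for Nefl (2.39, nearest 2.29). RictoraP2KO replicate 3 was the highest of its group for Th (3.16, nearest 2.58). RictoraP2KO replicate 2 was the highest for the receptor gene Ret (3.93, nearest 3.31), and RictoraP2KO replicate 1 the lowest for Acot12, an acyl-CoA thioesterase gene named for its gap in control replicate 3 (3.26, nearest 5.16).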

How the results depend on the processing

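Under each of the alternatives run, 0 members passed limma's adjusted threshold, the smallest adjusted p being 0.524, for Cldn19 without RictoraP2KO replicate 3; 7 members were left without dim probe sets. The 1 probe set past the threshold became 0 without dim probe sets (976 at an unadjusted p under 0.05), 0 with 3 arrays left out together (control replicates 2 and 3 and RictoraP2KO replicate 2; 1328) and 0 (1675) when the replicate number was taken as a block, and between 0 and 5 with 1 array left out. Same-numbered arrays did not deviate together (correlations from -0.15 to 0.09, and no array correlated best with its own number), so the numbers were not read as pairs. The Schwann cell mean difference of -0.16 was -0.32 without dim probe sets. The neuron mean difference of -0.37 ran from -0.50 to -0.026 with 1 array left out, the last without control replicate 3, and was -0.075 with the 3 arrays left out. Signs of single members turned in 19 of 483 refits, 9 of them without control replicate 3, and every one of these 19 was an uncalled difference. With 1 array left out the ranges were -0.25 to 0.092 for Ddc, -1.10 to 0.069 for Dbh, -0.50 to 0.0040 for Slc18a2, -0.63 to 0.060 for Npy, -0.043 to 0.032 for Chgb, -0.98 to 0.015 for Snap25, -0.11 to 0.14 for Gap43, -0.33 to 0.0091 for Nefl, -0.33 to 0.078 for Prph, -0.22 to 0.036 for Pllp and -0.17 to 0.081 for Drp2. With the 3 arrays left out the values were 0.12 for Ddc, 0.12 for Gap43, 0.073 for Nefl and 0.011 for Prph. For genes that stand out in control replicate 3 the turn follows from leaving out that array; for Chgb, Pllp and Drp2 the cause was not tested.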
